A study of Rattus norvegicus with 24 samples.

Results

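The 7 genes described here belong to the endoplasmic reticulum (ER) stress and integrated stress responses and were followed across all libraries of the series. They were listed by gene ID for their place in these pathways and not by a rule on their measured levels. The list was nevertheless drawn up with earlier results of these data known. The members are Atf4 (ENSRNOG00000017801), Atf3 (ENSRNOG00000003745), Ddit3 (ENSRNOG00000006789), Trib3 (ENSRNOG00000007319), Asns (ENSRNOG00000007546), Hspa5 (ENSRNOG00000018294) and Xbp1 (ENSRNOG00000010298). All 7 were among the 32754 gene rows of the count table, and all 7 passed the filter on low counts, which left 15908 genes. The symbols came with the list of IDs, and the tables used here do not allow that pairing to be checked.

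The libraries came from cultured rat cortical cells in a study of excitotoxicity, in which too much glutamate injures neurons. Cultures were kept for 8 days, then given fresh growth medium or medium with glutamate at 250 μM, and imaged for 4 h. The labels give no strain or age and no time of RNA extraction. Each medium was combined with DMSO, the solvent control, or with 1 of the agents IS141, AH609 and AH236, which are known here by code name alone, without dose or timing. The 8 groups are therefore DMSO, IS141, AH609 and AH236, each in medium and in glutamate, with 3 libraries a group and 24 in all. Whether a group's 3 libraries came from separate cultures is not stated. The p-values therefore reflect library-to-library spread only, possibly a technical one.

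Library totals ran from 22509400 to 35496447 counts. DMSO replicate 1 in medium stood apart from the rest, with a score of 48.0 on the second principal component of log2 CPM against -19.7 to 12.8 for the other libraries. Marker genes of neurons and other brain cells could not be looked up by symbol, so the cell type in the labels was not checked. In bulk RNA, fewer cells of a type and less RNA per cell cannot be told apart.

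The integrated stress response starts with kinases, PERK among them, that phosphorylate the translation factor eIF2α. General translation then falls while translation of the Atf4 mRNA rises, and ATF4 protein, a bZIP transcription factor, activates genes of amino acid supply and stress adaptation. Atf3 and Ddit3 encode further bZIP factors, Trib3 a pseudokinase that restrains ATF4 and AKT, and Asns the enzyme asparagine synthetase. The unfolded protein response of the ER adds the sensors ATF6 and IRE1. ATF6 activates Hspa5, which encodes the chaperone BiP, and Xbp1, whose mRNA IRE1 splices into the form that encodes an active factor. Counts per gene show neither the splicing of Xbp1 nor ATF4 protein.

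Promoter sequences from RefSeq (build GRCr8, while the counts were made on Rnor_6.0) were found by symbol for 6 of the 7 genes, Atf3 being the exception. The windows held 250 bases before and 50 after the annotated start. They were searched on both strands for 6 short motifs. The stretches below, chr3:38452866-38453015 (plus strand) for Hspa5, chr14:84604473-84604622 (plus strand) for Xbp1 and chr3:161275534-161275683 (minus strand) for Trib3, run 5′ to 3′ from 150 bases before the start to the last base before it. They are shown because 2 of them, Hspa5 and Xbp1, hold the ER stress response element, read here as CCAAT, then 9 bases, then CCACG. The third, Trib3, holds the C/EBP-ATF element TGATGNAA, at -21 to -14 on the opposite strand. Capitals mark these motifs and the shorter CRE-like TGACG, which is CGTCA on the opposite strand.
Hspa5: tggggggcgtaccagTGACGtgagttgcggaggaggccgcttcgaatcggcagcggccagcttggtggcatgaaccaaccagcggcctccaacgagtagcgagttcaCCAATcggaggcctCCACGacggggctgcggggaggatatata
Xbp1: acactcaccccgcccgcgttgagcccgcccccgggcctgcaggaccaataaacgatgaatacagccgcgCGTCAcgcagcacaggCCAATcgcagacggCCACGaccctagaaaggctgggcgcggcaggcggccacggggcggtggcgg
Trib3: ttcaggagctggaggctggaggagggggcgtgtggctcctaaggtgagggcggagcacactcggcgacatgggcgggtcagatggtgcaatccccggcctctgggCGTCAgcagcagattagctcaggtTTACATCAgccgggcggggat

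The ER stress response element lay at -43 to -25 in Hspa5 and at -65 to -47 in Xbp1, and 22 of 33469 promoters of the same length held it (0.0657%). The C/EBP-ATF element was in 3.98% of all promoters. The CRE-like letters were also in Atf4 and stood in 21.2% of promoters. Ddit3 held the AP-1 motif TGANTCA at -241 to -235, present in 7.33%. The CRE TGACGTCA (1.83% of promoters) and the UPRE TGACGTGG (0.595%), which holds the CRE-like letters, were in none of the 6 windows, and Asns held none of the 6 motifs in its window. These are matches of letters in a window.

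The first comparison asked what glutamate did to these genes in DMSO cultures. Levels are in CPM, a gene's count as a share of its TMM-scaled library, which do not correct for gene length, so they are compared between libraries and not between genes. Of the 7 members, 6 were called higher in glutamate (edgeR adjusted p under 0.05 over all genes tested), 0 were lower, and Ddit3 was not called. Glutamate moved much of the transcriptome. In DMSO cultures 59.1% of all genes tested were called in either direction, and 28.6% of all genes tested were called higher. The median log2 fold change of the 7 members was 0.42, and that of all genes was -0.01.

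Atf4 read 183, 189 and 194 CPM in the DMSO libraries in medium and 421, 438 and 446 CPM in those in glutamate. The 2 groups were far apart relative to their spread. The log2 fold change was 1.20 ± 0.04 (SE, n = 3 a group; edgeR adjusted p = 1.23e-17), rank 1048 of 15908 genes from the highest.

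Atf3 encodes an early-response factor of stress and neuronal injury. It was low in medium, at 1.62, 0.25 and 0.491 CPM in DMSO replicates 1, 2 and 3, from 48, 7 and 16 counts. In glutamate it reached 47.1, 49.2 and 50.2 CPM, from at least 1318 counts a library. Its log2 fold change of 5.95 ± 0.23 (SE; adjusted p = 1.78e-14) ranked 12 of 15908 genes from the highest. The fold rested on the low level in medium, where replicate 1 was above the others, and was 6.99 without that library.

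Trib3, the pseudokinase gene, was also low in medium and higher in glutamate. DMSO libraries in medium held 0.742, 0.214 and 0.246 CPM, from 22, 6 and 8 counts, and those in glutamate 3.92, 3.99 and 3.11 CPM. The log2 fold change was 3.18 ± 0.27 (SE; adjusted p = 1.68e-10), rank 136 of 15908, and was 3.96 without replicate 1 in medium.

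Asns, which makes asparagine, read 79.4, 51.2 and 52.7 CPM in medium and 75.0, 80.7 and 87.1 CPM in glutamate. Replicate 1 in medium lay within the glutamate range, so the groups overlapped. The log2 fold change was 0.41 ± 0.11 (SE; adjusted p = 0.0036), against 0.64 without replicate 1. The call was lost with scaling to library totals (0.22, adjusted p = 0.103) and with the compared groups fitted alone (0.42, adjusted p = 0.0831).

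Ddit3, the gene of the factor CHOP, which is linked to cell death after lasting ER stress, read 10.4, 6.90 and 5.89 CPM in medium and 8.05, 9.22 and 8.06 CPM in glutamate. The highest of all 6 values belonged to replicate 1 in medium. The log2 fold change was 0.13 ± 0.14 (SE; adjusted p = 0.445), with a 95% interval from -0.16 to 0.41, and it was -0.042 without replicate 3 in medium. Without replicate 1 in medium it was 0.40 (adjusted p = 0.0036).

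The chaperone gene Hspa5 rose from 337, 266 and 300.1 CPM to 383, 404 and 418 CPM, with no overlap between the groups. The log2 fold change was 0.42 ± 0.06 (SE; adjusted p = 3.45e-06). Xbp1 rose from 57.9, 54.3 and 57.3 CPM to 67.5, 71.0 and 75.3 CPM, again without overlap, by 0.34 ± 0.05 (SE; adjusted p = 9.39e-06). These 2 carriers of the ER stress response element shown above changed by 1.34-fold and 1.26-fold.

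DMSO replicate 1 in medium touched most of these values. Of the 12 medium libraries it had the highest level of Atf3, Ddit3, Hspa5 and Asns and the second highest of Trib3. Its 10.4 CPM of Ddit3 compares with 4.61 to 7.69 CPM in the 11 others, and its 79.4 CPM of Asns with 46.3 to 63.7 CPM. Its Atf4 level, in contrast, was the lowest of the 12, at 183 CPM against 189 to 240 CPM. What set this library apart was not tested.

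**Figure D1:**
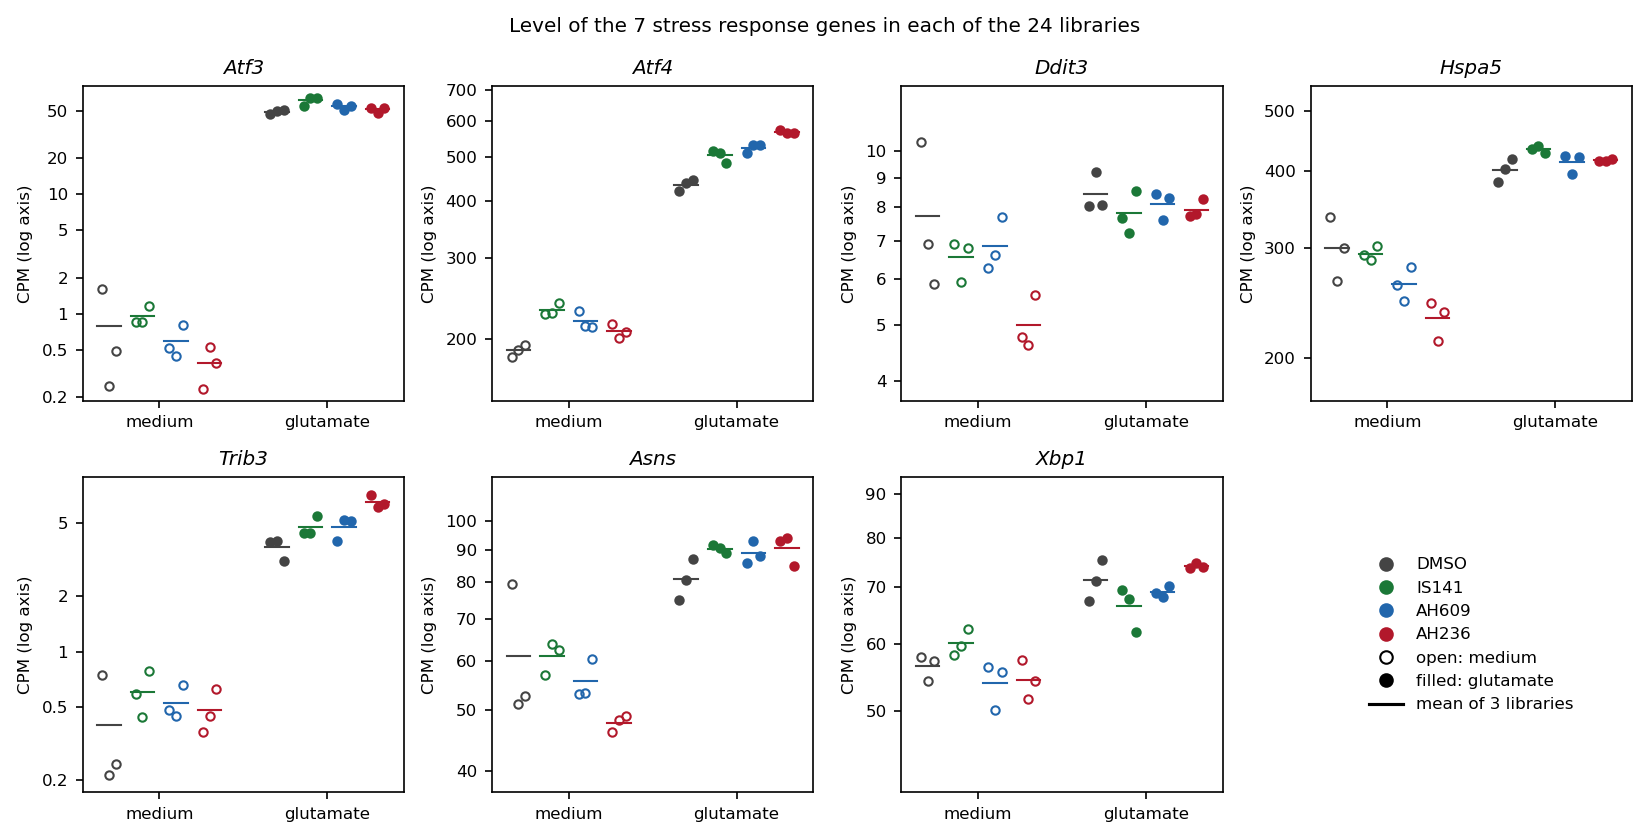
CPM on a log axis for each gene in each of the 24 libraries, with open points for medium, filled points for glutamate, 1 colour per treatment and a bar at the mean of 3 libraries. Atf3, Atf4, Hspa5 and Trib3 show no overlap between the 12 medium and 12 glutamate libraries, while Ddit3 overlaps most, and DMSO replicate 1 in medium (the leftmost point) is the highest medium library for Ddit3 and Asns.

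Glutamate was next compared with medium in the cultures given each agent, which share no library with the DMSO cultures or with each other. With IS141, 6 members were called higher, against 59.1% of all genes called in either direction and 28.9% called higher. With AH609 there were 6, against 61.3% in either direction and 30.1% higher. With AH236 all 7 were called higher, against 60.6% in either direction and 29.5% higher. No member was called lower in any treatment. Over the mean of the 4 treatments all 7 were called higher, where 78.4% of all genes were called and 38.8% were called higher. The shares of members called are thus to be read beside a large background.

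Size set some members apart from that background. Atf3, Trib3 and Atf4 rose by more than 2-fold in every treatment, except that Atf4 in IS141 cultures rose by 0.93 on the log2 scale, under 2-fold, when scaled to library totals. Called rises of at least 2-fold made up 7.97% of all genes in DMSO, 8.06% in IS141, 9.35% in AH609 and 9.18% in AH236 cultures. Hspa5, Asns, Xbp1 and Ddit3 stayed under 2-fold in all 4, the largest being 1.89-fold for Asns with AH236.

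Atf3 in glutamate lay between 47.1 and 64.3 CPM in all 12 libraries, with a median of 52.9, while the 12 medium libraries ran from 0.233 to 1.62 CPM with a median of 0.525. Its log2 fold change was 6.00 ± 0.22 with IS141, 6.51 ± 0.24 with AH609 and 7.02 ± 0.25 with AH236 (SE; edgeR adjusted p of at most 1.3e-14 in each). Group means in glutamate ran from 48.8 ± 1.59 CPM with DMSO to 60.9 ± 5.56 CPM with IS141, and those in medium from 0.383 ± 0.149 CPM with AH236 to 0.954 ± 0.178 CPM with IS141 (SD, n = 3).

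Atf4 lay between 183 and 240 CPM in medium and between 421 and 571 CPM in glutamate. It rose by 1.12 ± 0.04 with IS141, 1.26 ± 0.04 with AH609 and 1.45 ± 0.04 with AH236 (log2, SE; adjusted p of at most 5.07e-17). The mean over the 4 treatments was 1.26 ± 0.02 (SE; adjusted p = 1.76e-25).

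Trib3 held 0.214 to 0.785 CPM in the 12 medium libraries, a level of 6 to 22 counts. In glutamate it held 3.11 to 7.05 CPM, and all 12 libraries lay above all medium libraries. The log2 fold change was 2.97 ± 0.25 with IS141, 3.17 ± 0.26 with AH609 and 3.75 ± 0.25 with AH236 (SE; adjusted p of at most 1.43e-10).

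For Ddit3 a call was made with AH236 alone among the 4 treatments. The AH236 libraries read 4.75, 4.61 and 5.63 CPM in medium and 7.71, 7.78 and 8.27 CPM in glutamate, a log2 fold change of 0.67 ± 0.15 (SE; adjusted p = 0.000316). With IS141 the change was 0.25 ± 0.14 (adjusted p = 0.134), and with AH609 0.25 ± 0.14 (adjusted p = 0.145). Both were called without DMSO replicate 1 in medium (adjusted p = 0.0418 and 0.0447) and with the compared groups alone (adjusted p = 0.0466 and 0.0396). Group means in glutamate were alike, from 7.80 ± 0.677 CPM with IS141 to 8.44 ± 0.673 CPM with DMSO (SD, n = 3), and no neighbours in that order were free of overlap. Over the 4 treatments the log2 fold change was 0.32 ± 0.07 (SE; adjusted p = 0.000223), which was 0.14 under scaling to library totals (adjusted p = 0.0883).

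Asns rose by 0.57 ± 0.11 with IS141, 0.68 ± 0.11 with AH609 and 0.92 ± 0.11 with AH236 (log2, SE; adjusted p of at most 0.000178). Of the 12 glutamate libraries, 11 were above every medium library. They ran from 75.0 to 94.0 CPM, and the exception was DMSO replicate 1 in glutamate, beneath DMSO replicate 1 in medium.

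Hspa5 rose by 0.56 ± 0.06 with IS141, 0.65 ± 0.06 with AH609 and 0.84 ± 0.06 with AH236 (log2, SE; adjusted p of at most 3.54e-08). Its 12 glutamate libraries (383 to 439 CPM) did not overlap the 12 medium libraries (213 to 337 CPM). Xbp1 rose by 0.36 ± 0.06 with AH609 and 0.44 ± 0.06 with AH236 (adjusted p of at most 4.61e-06). With IS141 Xbp1 rose by 0.14 ± 0.06 (adjusted p = 0.0272), from 58.2, 59.6 and 62.4 CPM to 69.4, 67.8 and 61.9 CPM, with overlap. That small rise turned to -0.051 under scaling to library totals (adjusted p = 0.433) and was not called without either of IS141 replicates 1 and 2 in medium or in glutamate (0.11 to 0.13, adjusted p from 0.0774 to 0.147).

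Scaling matters for the small changes because glutamate shifts the balance between TMM and raw totals. With library totals alone the median over all genes, as a log2 fold change, was -0.20 in DMSO, -0.19 in IS141, -0.17 in AH609 and -0.21 in AH236 cultures. The directions of all 7 members held in every treatment under that scaling except for Ddit3 in DMSO (-0.058) and Xbp1 in IS141 cultures (-0.051).

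**Figure D2:**
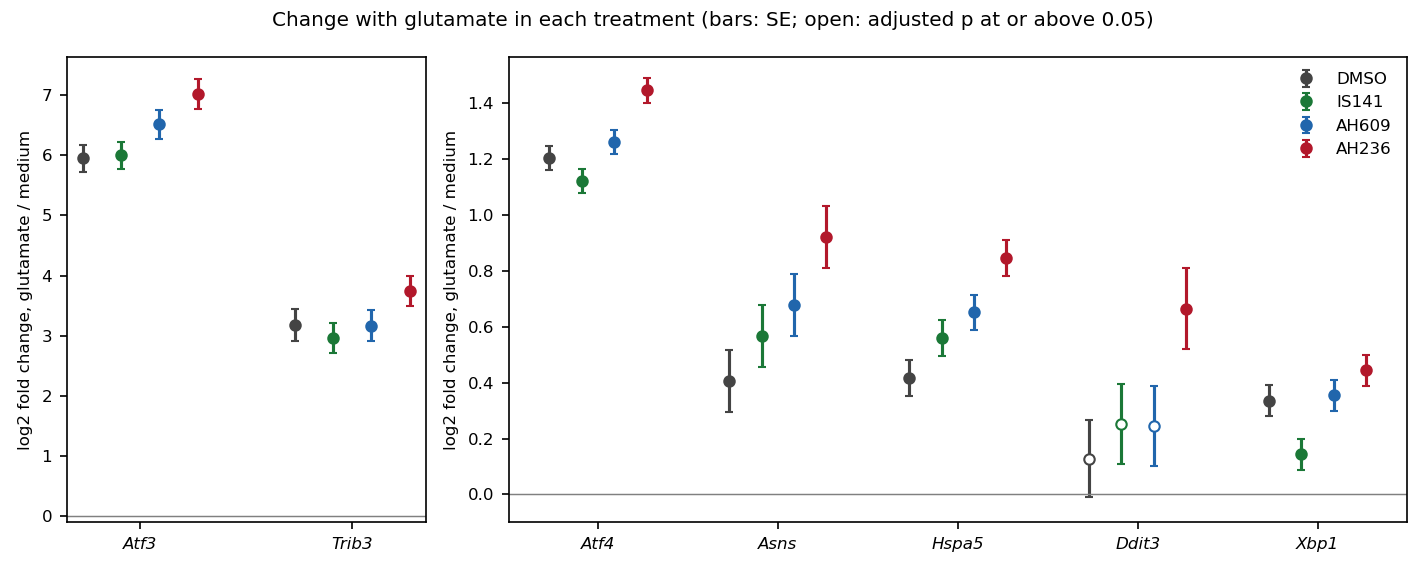
Log2 fold change of glutamate against medium for each gene (x axis) and treatment (colour), with bars of 1 SE and open points where the adjusted p was at or above 0.05. Atf3 and Trib3 have an axis of their own since they rose by 5.95 to 7.02 and 2.97 to 3.75, and AH236 has the highest point for each of the 7 genes.

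For each of the 7 genes the fold with glutamate was highest with AH236, and whether it exceeded that in DMSO was tested as a difference of the 2 effects. The test was passed by 2 members, Hspa5 and Atf4, both with a greater rise under AH236, where 1.55% of all genes were called. The difference for Hspa5 was 0.43 ± 0.09 (log2, SE; edgeR adjusted p = 0.0169) and for Atf4 0.24 ± 0.06 (adjusted p = 0.0424). Those of Asns (0.52 ± 0.16, adjusted p = 0.106), Ddit3 (0.54 ± 0.20, adjusted p = 0.189), Trib3 (0.56 ± 0.42, adjusted p = 0.598) and Atf3 (1.07 ± 0.49, adjusted p = 0.333) were larger but not called, and Xbp1 differed by 0.11 ± 0.08. Without DMSO replicate 1 in medium they were 0.28 for Asns, 0.26 for Ddit3, -0.21 for Trib3 and 0.03 for Atf3, while Hspa5 (0.34, adjusted p = 0.0102) and Atf4 (0.27, adjusted p = 0.0112) stayed called.

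The call for Atf4 was close to the threshold and was lost without 9 of the 12 libraries compared, each left out in turn. The call for Hspa5 was lost without DMSO replicate 1 in glutamate (0.40, adjusted p = 0.0581), and both were lost when the 4 compared groups were fitted alone (adjusted p = 0.15 for Hspa5 and 0.193 for Atf4). Asns was called by DESeq2 (0.52, adjusted p = 0.0325), and by edgeR without DMSO replicate 2 (0.63, adjusted p = 0.0227) or 3 (0.61, adjusted p = 0.0429) in medium. Ddit3 was called without DMSO replicate 3 in medium (0.71, adjusted p = 0.0428).

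For IS141 and AH609, 0 members were called in this difference of effects, where edgeR called 0.779% and 0.0251% of all genes. DESeq2 also called 0 in both. At an unadjusted p under 0.05 there was 1 member each, Xbp1 with IS141 (-0.19 ± 0.08) and Hspa5 with AH609 (0.23 ± 0.09). The 95% intervals of Atf4 were -0.21 to 0.04 for IS141 and -0.07 to 0.18 for AH609.

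The agents were then set against DMSO within each medium, to see whether they altered these genes with and without glutamate. The 3 agents share the DMSO libraries of a medium, so their differences from DMSO are not independent of each other, while the 2 media share no library. In medium 1 member was called with IS141 (7.98% of all genes called), 1 with AH609 (3.06%) and 4 with AH236 (10.5%). In glutamate 1 was called with IS141 (8.46%), 1 with AH609 (2.62%) and 2 with AH236 (10.3%). Atf4 was among those called in all 6 comparisons, and higher with the agent each time.

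In medium Atf4 read 226, 228 and 240 CPM with IS141, 230, 214 and 212 CPM with AH609, and 215, 201 and 207 CPM with AH236. All 9 values lay above the 3 DMSO values, of which the highest was 194 CPM. The log2 differences from DMSO were 0.29 ± 0.04 (SE; edgeR adjusted p = 0.000108), 0.21 ± 0.04 (adjusted p = 0.00618) and 0.14 ± 0.04 (adjusted p = 0.0434). The last was not called in 9 of 12 alternatives, among them without DMSO replicate 1 (0.11, adjusted p = 0.132), without DMSO replicate 2 (0.14, adjusted p = 0.0665), without AH236 replicate 1 (0.11, adjusted p = 0.199) or 3 (0.14, adjusted p = 0.103), and scaled to library totals (0.08, adjusted p = 0.222). The AH609 call was lost without AH609 replicate 1 (0.17, adjusted p = 0.0637). With the compared groups fitted alone neither the IS141 nor the AH609 call held (adjusted p = 0.062 and 0.301).

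In glutamate Atf4 read 516, 509 and 485 CPM with IS141, 509, 531 and 531 CPM with AH609, and 571, 563 and 563 CPM with AH236. Again all 9 values exceeded the DMSO values, which ended at 446 CPM. The log2 differences were 0.21 ± 0.04 (SE; adjusted p = 0.00315), 0.27 ± 0.04 (adjusted p = 0.00081) and 0.38 ± 0.04 (adjusted p = 3.73e-06), and each was called under all 13 alternatives tried. The order of the agents' means was IS141, AH609, AH236 from the highest in medium and the reverse in glutamate. IS141 and AH609 overlapped in both media, as did AH609 and AH236 in medium, whereas AH236 lay above AH609 in glutamate without overlap.

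Trib3 was also called with AH236 in glutamate. It read 7.05, 6.13 and 6.33 CPM against 3.92, 3.99 and 3.11 CPM in DMSO, and the lowest AH236 library was above the highest of the 9 other glutamate libraries, at 5.45 CPM. The log2 difference was 0.83 ± 0.19 (SE; adjusted p = 0.00556), rank 93 of 15908, and it was called under all 13 alternatives. With IS141 and AH609 the differences in glutamate were 0.38 ± 0.19 each (adjusted p = 0.232 and 0.345). In medium no agent gave a call for Trib3, at 6 to 22 counts a library.

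In medium AH236 gave lower levels of Hspa5, Ddit3 and Asns than DMSO. Hspa5 read 245, 213 and 237 CPM against 337, 266 and 300.1 CPM, a log2 difference of -0.38 ± 0.06 (SE; adjusted p = 0.000398), and without DMSO replicate 1 it was -0.29 (adjusted p = 0.000956). Ddit3 read 4.75, 4.61 and 5.63 CPM against 10.4, 6.90 and 5.89 CPM, a difference of -0.63 ± 0.14 (adjusted p = 0.00585) that was not called without DMSO replicate 1 (-0.35, adjusted p = 0.0654). Asns read 46.3, 48.2 and 49.0 CPM against 79.4, 51.2 and 52.7 CPM, a difference of -0.35 ± 0.11 (adjusted p = 0.0496) that was -0.12 without DMSO replicate 1 (adjusted p = 0.299). The Asns call was also lost without any 1 of the 3 AH236 libraries (adjusted p from 0.101 to 0.155).

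All 3 AH236 libraries lay below all 3 DMSO libraries for each of these genes. Hspa5, Ddit3 and Asns with AH236 also lay below all 9 other medium libraries. With only the 2 groups compared in the fit, none of the 4 AH236 calls in medium held (adjusted p = 0.124 for Hspa5, 0.224 for Ddit3, 0.371 for Asns and 0.305 for Atf4). In glutamate Hspa5, Ddit3 and Asns with AH236 were at 416 ± 1.75, 7.92 ± 0.303 and 90.7 ± 4.92 CPM (SD, n = 3), and their differences from DMSO were 0.05, -0.09 and 0.16, with no call. Without DMSO replicate 1 in medium, which takes part in the shared estimate of the spread, Asns was called there (0.16, adjusted p = 0.0447). Without DMSO replicate 2 in medium, Atf3 was called lower with AH236 in medium (-1.39, adjusted p = 0.0231) and Hspa5 lower with AH609 (-0.27, adjusted p = 0.011).

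**Figure D3:**
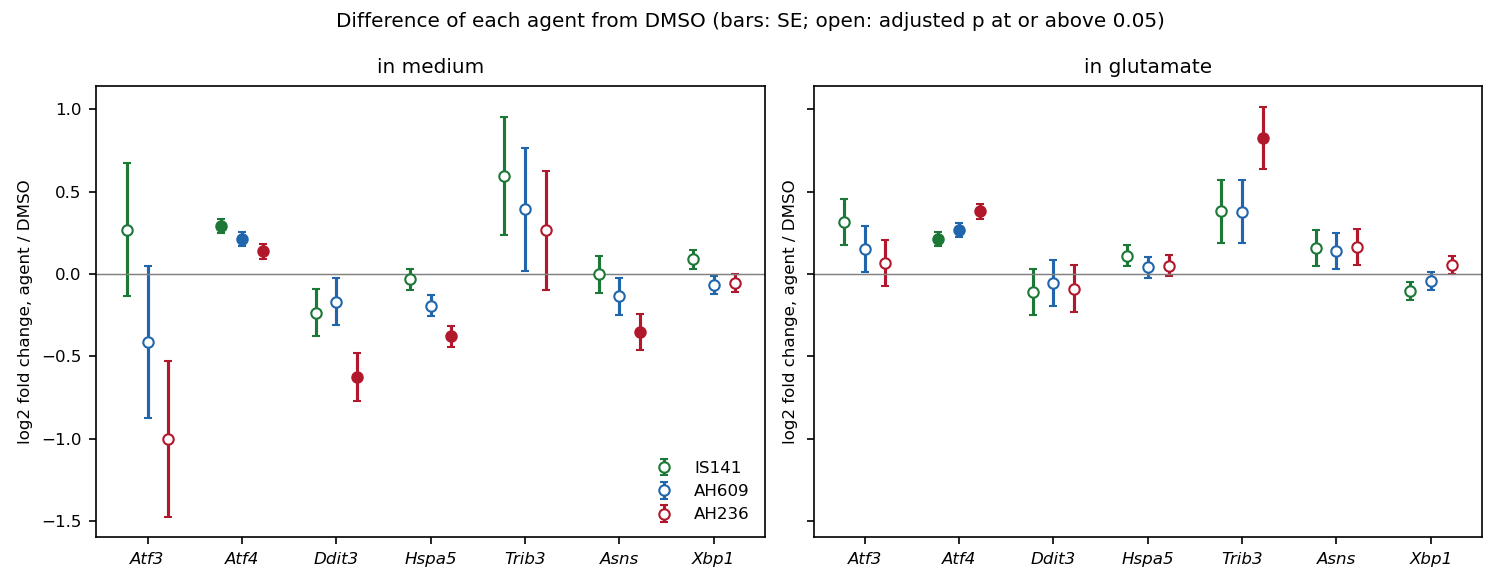
Log2 fold change of IS141, AH609 and AH236 against DMSO for each gene, in medium (left) and in glutamate (right), with bars of 1 SE and open points where the adjusted p was at or above 0.05. Atf4 is filled above 0 for every agent on both sides, Hspa5, Ddit3 and Asns are filled below 0 with AH236 in medium, and Trib3 is filled with AH236 in glutamate.

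With IS141 in medium, what was called depended on DMSO replicate 1. With all libraries Atf3 (0.853, 0.848 and 1.16 CPM) differed from DMSO by 0.27 ± 0.40, Trib3 (0.591, 0.443 and 0.785 CPM) by 0.59 ± 0.36 and Asns (56.9, 63.7 and 62.5 CPM) by -0.0012 ± 0.11 on the log2 scale (SE), none of them called. Without that library the differences were 1.31 (edgeR adjusted p = 0.0076), 1.37 (adjusted p = 0.0171) and 0.23 (adjusted p = 0.0137), so that 4 members were called higher. These values rest on 2 DMSO libraries, with 7 and 16 counts of Atf3 and 6 and 8 of Trib3. Calls over all genes grew as well, to 1933 of 16119 tested without that library, against 1269 of 15908 with all libraries. In glutamate the IS141 libraries held 54.5, 63.9 and 64.3 CPM of Atf3 against 47.1, 49.2 and 50.2 CPM in DMSO, without overlap. That difference of 0.32 ± 0.14 (adjusted p = 0.17) was called when DMSO replicate 1 in medium was left out of the shared fit (adjusted p = 0.00295).

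Between agents, over both media, 2 members were called lower with AH236 than with IS141, where 16.0% of all genes were called. Hspa5 was lower by -0.20 ± 0.04 (log2, SE; edgeR adjusted p = 0.00301), a call made under all 19 alternatives. The gap in its group means was wider in medium (232 against 294 CPM) than in glutamate (416 against 434 CPM). Asns (-0.17 ± 0.08, adjusted p = 0.142) was called without DMSO replicate 1 in medium (adjusted p = 0.00182) and with the compared groups alone (adjusted p = 0.00106). Its means were 47.8 against 61.1 CPM in medium but 90.7 against 90.5 CPM in glutamate. Atf3 was lower by -0.76 ± 0.24 (adjusted p = 0.0374). AH236 lay below IS141 without overlap in medium (0.233 to 0.531 against 0.848 to 1.16 CPM) and in glutamate (47.6 to 52.9 against 54.5 to 64.3 CPM), but the call was lost in 12 of 19 alternatives. It was lost without any 1 of the AH236 libraries other than replicate 2 in medium, and without any 1 of the IS141 libraries other than replicate 1 in glutamate (adjusted p from 0.0537 to 0.116).

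For AH609 against IS141 and AH236 against AH609, 0 members were called by edgeR or by DESeq2, where edgeR called 2.67% and 0.685% of all genes. At an unadjusted p under 0.05 there was 1 member in each, Hspa5 in the former (-0.12 ± 0.04, called without DMSO replicate 1 in medium, adjusted p = 0.0455) and Ddit3 in the latter (-0.25 ± 0.10). For both the gap in group means was wider in medium (263 against 294 CPM and 5.00 against 6.86 CPM). In glutamate the means were 413 against 434 CPM and 7.92 against 8.11 CPM. Averaged over both media, the 95% intervals of Atf4 between agents ran from -0.08 to 0.05 for AH609 against IS141, -0.06 to 0.07 for AH236 against IS141 and -0.04 to 0.08 for AH236 against AH609. For AH236 against IS141 this average joins opposite differences, since Atf4 with AH236 was lower in medium (201 to 215 against 226 to 240 CPM) and higher in glutamate (563 to 571 against 485 to 516 CPM), without overlap in either. The differences between agents were not tested within a medium.

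The 7 profiles were compared as the root mean square difference of the 8 group means of log2 CPM, each centred on its own mean. The profiles were not scaled, so this difference reflects the size of a change as well as its shape. Hspa5 and Asns were the closest pair of members, at 0.04, and of the 15907 other genes tested each was the nearest to the other. That rank depended on 1 library, since without DMSO replicate 1 in medium the difference was 0.07 and Asns ranked 24 among the neighbours of Hspa5 and Hspa5 25 among those of Asns. Atf3, the member with the largest rise in glutamate, stood farthest from the other members, at 1.63 from Trib3 and 2.56 from Atf4. The gene nearest to Atf3 was ENSRNOG00000014350, at 0.20, and the gene nearest to Trib3 was ENSRNOG00000032522, at 0.12. Trib3 had 23 genes within 0.25, Atf3 1 and Atf4 716, whereas Asns had 3150, Hspa5 3365, Ddit3 4904 and Xbp1 6738. The profiles share all libraries, and no test was made of their likeness.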

How the data were processed

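RNA from 24 libraries of rat cortical cells was profiled by sequencing, with directional NEBNext Ultra II libraries per the labels' protocols. The authors deposited raw gene counts, as whole numbers without normalization, in a single table. RSEM 1.3.3, STAR 2.7.8a, FastQC 0.11.8, cutadapt 2.3, bcl2fastq and build Rnor_6.0 are named per the submitters' processing notes. What each did, which annotation was used and whether counting used strand is not given in the sources used here. Values may be rounded RSEM estimates, and genes that share reads with copies or overlapping genes are uncertain.

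Groups came from sample titles. The number 2 stands in 2 AH236 glutamate titles, of which the later was taken as replicate 3. Counts were fitted with edgeR 4.0.16 (R 4.3.3): filterByExpr, TMM, robust dispersions, quasi-likelihood F test, 1 mean for each of the 8 groups, 17 comparisons, Benjamini-Hochberg adjustment over 15908 genes, threshold 0.05. Each SE was derived from the log2 fold change and its F statistic. The procedure was tested on simulated data for the comparison of IS141 with DMSO in medium only. Alternatives were DESeq2 1.42.0, RLE factors, library totals, no filter, the compared groups alone, the title number as a block, and each library left out. The 95% intervals use the test's degrees of freedom. Principal components and profiles used log2 CPM with a prior count of 2.

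The members and lists were chosen with earlier results of these data known. The rule for named genes took the 7 members in every comparison, the largest changes of the pathway lists, and the 2 nearest profiles of each member. The pathway and cell type marker lists, kept by symbol, were not applied because no table used here pairs IDs with symbols, and only 2 neighbours are named for that reason.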

Additional observations from a re-analysis of the deposited data

Results flagged for a closer look

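The rise with glutamate differed between AH236 and DMSO cultures by a test of the difference itself for 2 members, where 1.55% of all genes were called. The difference was 0.43 on the log2 scale for Hspa5 (edgeR adjusted p = 0.0169), which rose by 0.84 with AH236 and 0.42 with DMSO. It was 0.24 for Atf4 (adjusted p = 0.0424), which rose by 1.45 and 1.20. The Atf4 call was lost in 12 of 18 alternatives and the Hspa5 call in 2 of 18, and both were lost with the compared groups alone (adjusted p = 0.193 and 0.15). For Hspa5 the glutamate levels were alike, at 416 ± 1.75 CPM with AH236 and 402 ± 17.4 CPM with DMSO (SD, n = 3), and the medium levels were 232 ± 16.6 and 301 ± 35.5 CPM. For Atf4 the AH236 level was above DMSO in both media, by 0.14 in medium and 0.38 in glutamate. The DMSO medium mean of Hspa5 includes replicate 1, which stood apart from the other libraries and had the highest Hspa5 level of the 12 medium libraries (337 CPM). Without it the differences were 0.34 for Hspa5 (adjusted p = 0.0102) and 0.27 for Atf4 (adjusted p = 0.0112).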

How the results depend on the processing

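The rise with glutamate was called for 5 or 6 members in DMSO and 5 to 7 in IS141 cultures under other settings, 6 or 7 with AH609, 7 with AH236 and 6 or 7 over the 4 treatments. With single libraries left out the ranges were 6 to 7 for DMSO, 5 to 7 for IS141, 6 to 7 for AH609, and 7 throughout for AH236 and the mean. With library totals Ddit3 in DMSO cultures was -0.058 and Xbp1 in IS141 cultures -0.051. Ddit3 in DMSO cultures was -0.042 without DMSO replicate 3 in medium and 0.40 without replicate 1. Against DMSO in medium, fitting the compared groups alone left 0 members called with IS141, 0 with AH609 and 0 with AH236. Library totals gave 2 with AH609 (474 of 15908 genes called) and RLE factors 2 with AH236 (1636 of 15908). No filter also gave 2 with AH236. With libraries left out the counts in medium were 1 to 4, 0 to 2 and 1 to 4, and those in glutamate 1 to 2, 1 to 1 and 2 to 3, in the order IS141, AH609, AH236. In glutamate the compared groups alone gave 2 with IS141. The AH236 change of the glutamate effect had 1 call with no filter and 0 with the compared groups alone, and 0 to 3 with libraries left out, against 0 to 0 for IS141 and AH609. AH609 against IS141 had 1 call with the compared groups alone and 0 to 1 with libraries left out. AH236 against IS141 had 1 with no filter and 1 to 3 with libraries left out, and AH236 against AH609 had 0 to 0. Calls over all genes moved with the setting as well. Without DMSO replicate 1 in medium, 1933 of 16119 genes were called for IS141 in medium and 1406 for AH236. With all libraries these were 1269 and 1671 of 15908. In glutamate AH236 went from 1633 to 2530. The change of the glutamate effect went from 124 to 742 for IS141 and from 246 to 496 for AH236. Shares of all genes under most other settings are not given here. The ranks of Asns and Hspa5 as neighbours were 24 and 25 without DMSO replicate 1 in medium, an alternative chosen after seeing the data.

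Same-numbered titles showed little correlation: of 10 same-numbered pairs, 2 had deviations correlated above 0.1 (r from -0.05 to 0.17). Both were DMSO pairs, at 0.13 and 0.17. AH236 gave only its pair of unnumbered titles, since the number 2 stands in 2 of its glutamate titles. Deviations from means of 3 libraries cannot show whether same-numbered libraries shared a culture. With the title number as a replicate block, 2 members were called for AH236 in medium, 1 for the AH236 change of the glutamate effect and 1 for AH236 against IS141. Without the block these were 4, 2 and 2, beside 10.5%, 1.55% and 16.0% of all genes. The share of all genes in the blocked fit is not given here, so no loss particular to the members can be read. In that fit AH236 glutamate replicates 2 and 3 shared the block of number 2, and no AH236 glutamate library was in the block of number 3. Of single-gene results on the glutamate effect, or called with all libraries in the other comparisons, 260 kept direction and call under settings other than left-out libraries, 23 lost the call, 2 gained it and 2 reversed. Of the same results with libraries left out, 433 kept both, 34 lost the call, 3 gained it and 1 reversed. Over all members and comparisons, 7 calls were gained under settings other than left-out libraries and 15 with a library left out. The pathway lists could not be run, and the compared groups alone do not apply to the mean of the treatments. Low counts limit Atf3 and Trib3 in medium. Gene-level counts do not separate transcripts.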
